A study of Mus musculus with 6 samples.

Results

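The transcripts of 8 genes were followed in hearts of mouse embryos at E9.5, 3 *Smyd1-KO* and 3 WT. The genes are the alpha-arrestins *Txnip*, *Arrdc1*, *Arrdc2*, *Arrdc3* and *Arrdc4* and the glucose-sensing transcription factor genes *Mlx*, *Mlxip* and *Mlxipl*. They were found by symbol in the deposited table of raw RNA-seq counts, where all 8 are among 54532 genes, and all 8 were among the 19372 genes with enough counts for a test. SMYD1 is a histone methyltransferase of striated muscle. *Smyd1-KO* is a conventional null, so the deletion is carried by every cell of the embryo and not by cardiomyocytes alone, and no agent was given to either genotype according to the labels. RNA came from individual hearts, each a separate embryo, and embryos of both sexes were used. The line was obtained from the Jackson Laboratory as heterozygotes.

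Alpha-arrestins are adaptor proteins that link membrane proteins to ubiquitin ligases of the NEDD4 family and so direct them to endosomes. TXNIP is known for binding and inhibiting thioredoxin and, like its close relative ARRDC4, for lowering glucose uptake by driving glucose transporters into the cell. The factors MondoA (*Mlxip*) and ChREBP (*Mlxipl*) pair with MLX, respond to glucose-6-phosphate and bind DNA at carbohydrate response elements, which are built from pairs of E-box-like motifs. *Txnip* and *Arrdc4* are the best known targets of MondoA.

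*Txnip* and *Arrdc4* fell in *Smyd1-KO* hearts to 0.507 and 0.493 of their WT level, and *Arrdc3* rose 2.20-fold. *Arrdc1* was 1.48-fold and *Arrdc2* 1.28-fold higher without passing the test, and none of the 3 transcription factor genes passed it. Calls required an adjusted *P* under 0.05 in edgeR's quasi-likelihood test together with a log2 fold change of 0.5 or more in either direction. By this rule 3 of the 8 genes were called, 1 higher and 2 lower, where 4.28% of all tested genes were called, 2.86% higher and 1.42% lower. The count of 3 rests on WT hearts 1, 2 and 3 and on *Smyd1-KO* heart 2. It was 2 without WT heart 1, where *Txnip* lost its call, 0 without WT heart 2 and 0 without WT heart 3. Without *Smyd1-KO* heart 2 it was 1 (*Arrdc3*), while the directions of all 8 genes stayed as they were in every such fit. In the same fits calls over all genes fell from 830 to 501, 97 and 171 without WT heart 1, 2 and 3. They fell to 248 without *Smyd1-KO* heart 2. Without *Smyd1-KO* heart 3 they fell to 344, while the count of members stayed at 3.

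The gene counts of a heart summed to between 48627825 and 64217529, and no pair of hearts of a genotype was within sampling noise of the other. Levels are given as CPM, each count relative to a TMM-scaled library total. *Smyd1* itself measured 101, 222 and 206 CPM in mutant hearts 1, 2 and 3 and 414, 379 and 270 CPM in WT hearts 1, 2 and 3, lower in every mutant heart (log2 fold change -1.01, adjusted *P*=0.0973 by edgeR and 0.00534 by DESeq2), with reads left on the gene in all of them. The heart label was checked with 12 cardiomyocyte genes, all of which were detected. Their summed level was 9573 CPM in *Smyd1-KO* heart 1 and 12707 CPM in WT heart 3, against 19755 to 21352 CPM in the other 4 hearts. The summed level of 10 erythroid genes was 752, 1003 and 962 CPM in WT hearts, against 28.4, 284 and 165 CPM without *Smyd1*. In whole hearts, fewer cells of a type and less RNA per cell cannot be told apart.

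The promoter sequences of the 3 called genes are shown because *Txnip* and *Arrdc4* moved together and *Arrdc3* the other way. Each is the RefSeq sequence of the 250 bases before the transcription start in GRCm38.p6, written 5′ to 3′ on the strand of the gene. Capitals mark a CCAAT box (CCAAT, or ATTGG on the other strand) and E-box letters, either a whole E-box (CACGTG) or the 2 outer parts of a tandem pair spaced by 5 bases (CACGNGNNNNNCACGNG, on either strand).

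*Txnip*, forward strand, chr3:96557707-96557956: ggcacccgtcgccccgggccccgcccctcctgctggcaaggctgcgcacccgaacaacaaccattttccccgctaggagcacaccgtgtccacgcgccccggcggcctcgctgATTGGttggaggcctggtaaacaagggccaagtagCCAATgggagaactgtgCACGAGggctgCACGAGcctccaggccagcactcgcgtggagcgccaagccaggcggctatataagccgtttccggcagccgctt
*Arrdc4*, reverse strand, chr7:68749239-68749488: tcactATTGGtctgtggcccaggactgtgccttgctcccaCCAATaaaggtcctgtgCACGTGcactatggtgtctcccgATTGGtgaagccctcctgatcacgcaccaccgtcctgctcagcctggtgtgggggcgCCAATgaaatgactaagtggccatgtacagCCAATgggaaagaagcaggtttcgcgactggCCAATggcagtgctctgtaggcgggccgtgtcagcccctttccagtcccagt
*Arrdc3*, forward strand, chr13:80883134-80883383: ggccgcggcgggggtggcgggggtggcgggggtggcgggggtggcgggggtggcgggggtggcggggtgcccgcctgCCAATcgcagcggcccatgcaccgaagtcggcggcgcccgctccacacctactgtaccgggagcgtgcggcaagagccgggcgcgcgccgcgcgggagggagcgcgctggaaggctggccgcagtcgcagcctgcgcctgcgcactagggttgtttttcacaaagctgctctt

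The *Txnip* promoter holds 1 tandem pair, CACGAGggctgCACGAG, from base -85 to base -69, and 2 CCAAT boxes before it. A tandem pair occurs in 0.0457% of the 32851 RefSeq windows of the same length, but its letters were chosen after the *Txnip* promoter had been read. The *Arrdc4* promoter holds 1 whole E-box and 6 CCAAT boxes. A whole E-box occurs in 6.02% and at least 6 CCAAT boxes in 0.0578% of all windows. The limit of 6 is the count of the *Arrdc4* promoter itself. At least 2 CCAAT boxes occur in 10.1% and at least 3 in 2.79% of windows. The *Arrdc3* promoter holds 1 CCAAT box, where 33.8% of windows hold at least 1, and neither E-box motif. *Arrdc3* has 2 further RefSeq starts, whose windows hold 1 and 0 CCAAT boxes and no E-box motif. Whole E-boxes also stand before *Mlx* and the first of the 2 starts of *Mlxipl*, but not before the second. Of the genes not called, *Arrdc2* has 3 CCAAT boxes, *Mlx* and *Mlxip* have 2 each, *Mlxipl* has 1 at its first start and *Arrdc1* has 0. None of the 11 RefSeq windows of the 8 genes held an inverted pair (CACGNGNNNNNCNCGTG), found in 0.0396% of all windows. These are matches of letters and not bound sites.

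**Figure D1:**
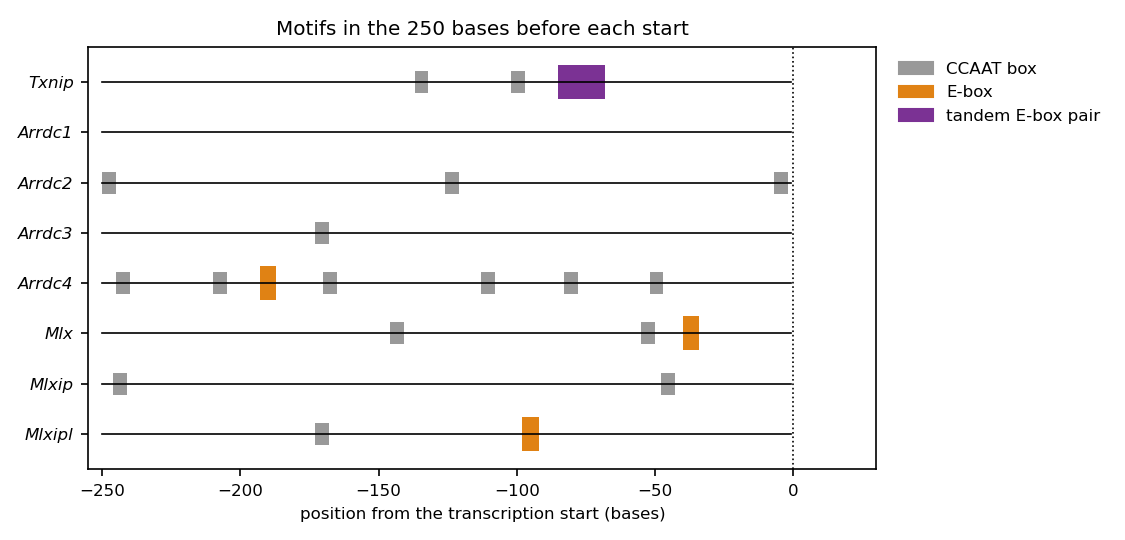
Motif matches in the 250 bases before the RefSeq start nearest to the annotated gene start, for each of the 8 genes, as distance from the start in bases (x axis), with 1 line per gene. Grey blocks are CCAAT boxes, orange blocks whole E-boxes and the purple block is the tandem E-box pair of *Txnip* at -85 to -69, while *Arrdc4* has 6 CCAAT boxes and *Arrdc1* no match.

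*Txnip* (ENSMUSG00000038393) is a forward-strand gene of chromosome 3 (96557957 to 96561883). WT hearts 1, 2 and 3 held 42.3, 51.2 and 40.5 CPM of its transcript and *Smyd1-KO* hearts 1, 2 and 3 held 17.8, 21.1 and 29.1 CPM. The highest mutant heart, number 3, stayed below the lowest WT heart. This gave a log2 fold change of -0.98 (standard error 0.190, 95% interval -1.43 to -0.53, adjusted *P*=0.0338 by edgeR). The mean was 44.7 ± 5.70 CPM in WT against 22.6 ± 5.84 CPM in mutant hearts (SD, n=3). When each heart was left out in turn, *Txnip* kept its call in 2 of 6 fits, with an adjusted *P* of 0.112 without *Smyd1-KO* heart 2 and of 0.0746, 0.142 and 0.0947 without WT heart 1, 2 and 3 by edgeR. An antisense gene, *Gm15441*, shares 606 exonic bases with *Txnip*, but its 18 to 41 counts per heart come to 1.38% of those of *Txnip*. The strand setting of the counting was not given, so reads of the pair cannot be told apart in the shared bases.

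*Arrdc4* (ENSMUSG00000042659), a reverse-strand gene of chromosome 7 (68736995 to 68749241), stood at 18.7, 24.9 and 21.6 CPM in WT and at 9.98, 10.3 and 11.8 CPM in mutant hearts. All mutant hearts lay below all WT hearts. The difference was -1.02 on the log2 scale (standard error 0.143, 95% interval -1.36 to -0.68, adjusted *P*=0.0138 by edgeR). *Arrdc4* kept its call in 3 of 6 such fits, and its adjusted *P* was 0.0608 without *Smyd1-KO* heart 2 and 0.0795 and 0.0682 without WT heart 2 and 3 by edgeR. The ratio of *Txnip* to *Arrdc4*, each per kilobase of exon, was 2.67 ± 0.252 in WT and 2.71 ± 0.447 in *Smyd1-KO* hearts (SD, n=3, exact permutation test, two-sided, *P*=1.0). The ratios of the genotypes overlapped, which does not show that they are equal.

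Erythroid RNA was also lower in every *Smyd1-KO* heart, and 2 of the 10 erythroid genes were called by edgeR and 7 by DESeq2, all lower. At an unadjusted *P* under 0.05 by edgeR 9 were lower, where 2311 of all 19372 tested genes were lower and 2546 higher. The genotypes did not overlap for 9 of them, against 31.3% of all tested genes. Among the mutant hearts *Txnip*, *Arrdc4* and the erythroid sum were all lowest in heart 1, while *Txnip* and *Arrdc4* were highest in heart 3 and the erythroid sum in heart 2. Among the WT hearts all of them were highest in heart 2, and the order of *Arrdc4* was that of the erythroid sum. Such orders were not particular to erythroid genes. Marker sums of cardiomyocyte, endothelial, epicardial and macrophage genes were, like *Txnip* and *Arrdc4*, lowest in mutant heart 1 and highest in mutant heart 3. The hepatic and visceral endoderm sum was lowest in mutant heart 2. Among WT hearts the endothelial sum had the order of *Txnip*, and the macrophage and hepatic sums that of *Arrdc4*. Cardiomyocyte and epicardial sums had neither order there. The part of red cell RNA in the falls of *Txnip* and *Arrdc4* was not tested.

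*Arrdc3* (ENSMUSG00000074794), a forward-strand gene of chromosome 13 (80883384 to 80896042), encodes an adaptor known for directing beta-adrenergic receptors to endosomes. WT hearts held 69.9, 53.6 and 65.2 CPM and mutant hearts 160, 124 and 131 CPM. Every mutant heart lay above every WT heart, and *Smyd1-KO* heart 1 was the highest. That heart had the lowest sum of cardiomyocyte genes. Among WT hearts the highest *Arrdc3* level was in heart 1, which had the highest such sum. The part of cell make-up in the rise of *Arrdc3* was not tested. The difference was 1.14 on the log2 scale (standard error 0.137, 95% interval 0.82 to 1.46, adjusted *P*=0.00822 by edgeR). Its call was kept in 4 of 6 fits with a heart left out, and without WT heart 2 or WT heart 3 its adjusted *P* was 0.0515 and 0.0503 by edgeR. With *Smyd1-KO* heart 1 left out the count of called members stayed at 3.

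*Arrdc1* (ENSMUSG00000026972), a reverse-strand gene of chromosome 2 (24925352 to 24935252), encodes a protein known for budding vesicles from the cell surface. Its level was 7.35, 9.37 and 8.83 CPM in WT and 12.1, 12.3 and 13.5 CPM in mutant hearts. The genotypes did not overlap, but the log2 fold change of 0.57 (standard error 0.142, 95% interval 0.23 to 0.90) had an adjusted *P* of 0.0649 by edgeR. DESeq2 gave an adjusted *P* of 0.00363 and so called *Arrdc1* in addition, bringing the count to 4, where 8.97% of the tested genes were called by DESeq2.

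*Arrdc2* (ENSMUSG00000002910), a reverse-strand gene of chromosome 8 (70835129 to 70839720), stood at 3.69, 4.49 and 4.47 CPM in WT and at 5.68, 5.51 and 5.06 CPM in mutant hearts. Its log2 fold change was 0.36 (95% interval -0.02 to 0.74, adjusted *P*=0.220 by edgeR). The mutant hearts lay above the WT hearts here as well, though 31.3% of all tested genes showed such a separation in either direction. Of the 8 genes 6 did, namely the 5 alpha-arrestins and *Mlx*. For each of these 6 an exact permutation test over the 6 hearts gave *P*=0.1 (two-sided), the smallest *P* that 3 hearts against 3 allow.

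**Figure D2:**
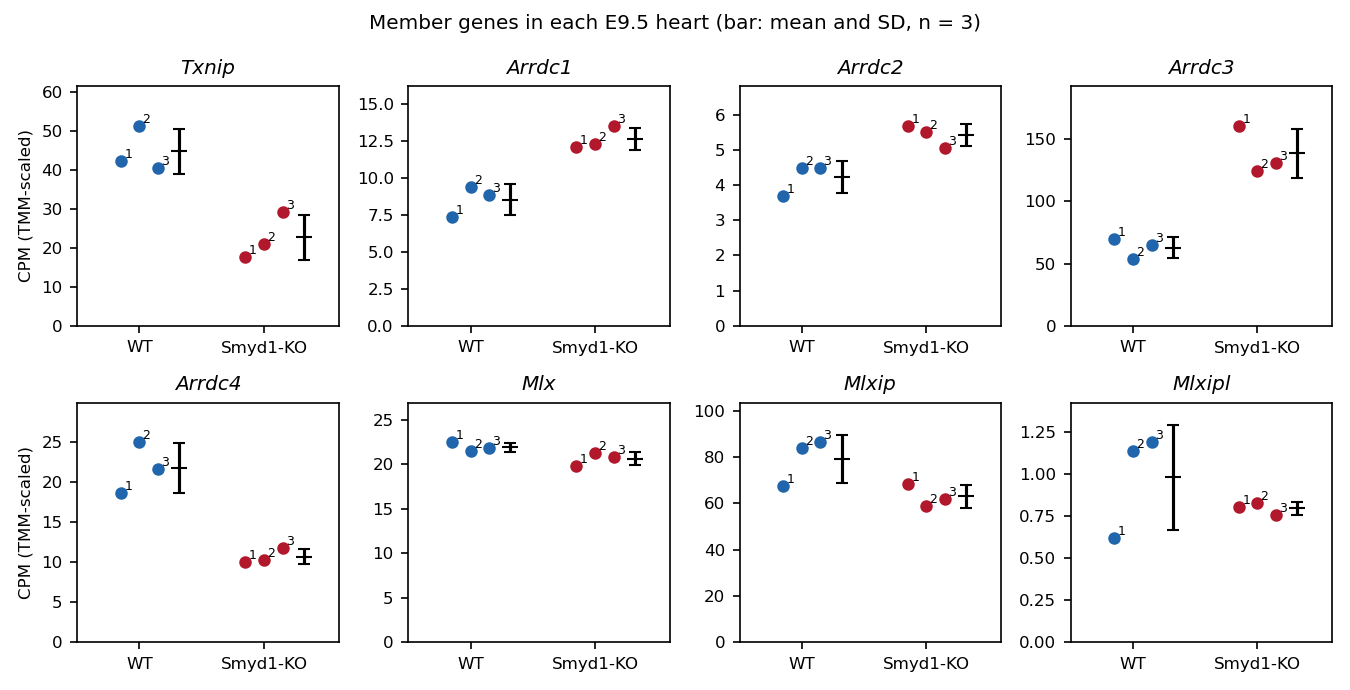
TMM-scaled CPM (y axis, from 0) of the 8 genes in each heart, with points numbered by replicate, blue for WT and red for *Smyd1-KO*, and the black bar at the mean ± SD of 3 hearts. *Txnip* and *Arrdc4* are lower and *Arrdc1*, *Arrdc2* and *Arrdc3* higher in every *Smyd1-KO* heart, and *Mlxip* and *Mlxipl* overlap.

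The alpha-arrestins moved in opposite directions, and whether the genotypes overlapped in their sum depended on the scale. In plain CPM, where long transcripts weigh more, the 5 genes summed to 141 to 144 in WT and to 173 to 206 in mutant hearts, without overlap. Per kilobase of exon, which allows levels to be compared between genes, the 5 genes summed to 34.4 ± 1.58 CPM in WT and 38.7 ± 2.59 CPM in mutant hearts (SD, n=3, exact permutation test, two-sided, *P*=0.2). *Txnip* made up 40.6%, 45.2% and 38.6% of this sum in WT hearts 1, 2 and 3 and 14.1%, 18.9% and 23.3% in *Smyd1-KO* hearts. *Arrdc3* made up 33.4%, 23.6% and 30.9% in WT and 63.5%, 55.4% and 52.1% in *Smyd1-KO* hearts. Per kilobase, *Txnip* was the leading alpha-arrestin in every WT heart and *Arrdc3* in every mutant heart. In plain CPM *Arrdc3* led in every heart of both genotypes. WT hearts 1, 2 and 3 held 69.9, 53.6 and 65.2 CPM of it and 42.3, 51.2 and 40.5 CPM of *Txnip*. The order thus depends on the exonic lengths used, 3123 bases for *Txnip* and 6266 for *Arrdc3*. The ratio of *Arrdc3* to *Txnip*, each per kilobase of exon, ran from 0.522 to 0.823 in WT and from 2.24 to 4.50 in *Smyd1-KO* hearts (exact permutation test, two-sided, *P*=0.1).

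**Figure D3:**
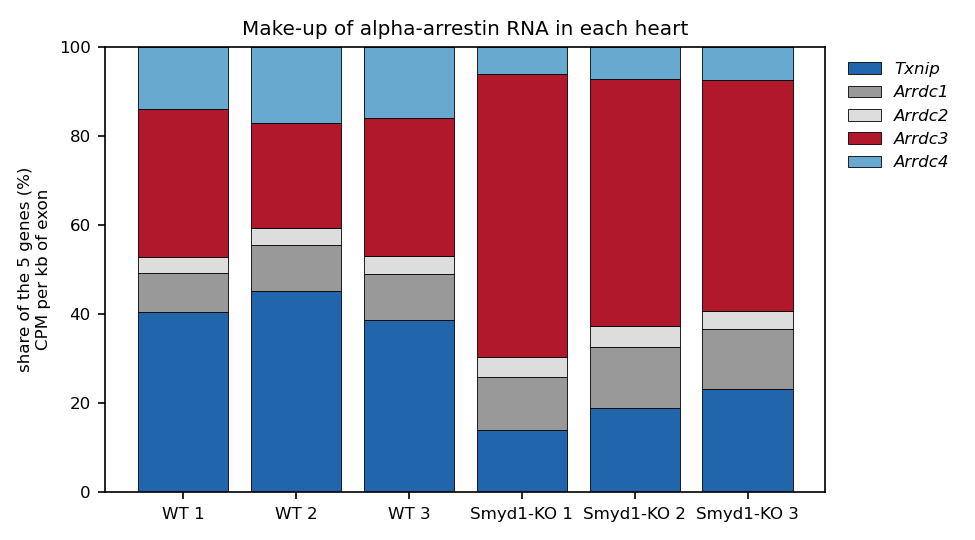
Share of each alpha-arrestin in the summed CPM per kilobase of exon of the 5 genes (y axis, percent), 1 bar per heart. *Txnip* (dark blue) falls from 38.6% or more in WT to 23.3% or less in *Smyd1-KO* hearts, and *Arrdc3* (red) rises from at most 33.4% to at least 52.1%.

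In WT hearts the levels per kilobase of exon were ordered as *Txnip* (14.3 ± 1.83 CPM), *Mlx* (10.9 ± 0.251), *Arrdc3* (10.0 ± 1.34), *Mlxip* (9.51 ± 1.23), *Arrdc4* (5.38 ± 0.777), *Arrdc1* (3.39 ± 0.417), *Arrdc2* (1.31 ± 0.141) and *Mlxipl* (0.177 ± 0.0564; SD, n=3). Neighbors in this order overlapped between hearts for *Mlx* and *Arrdc3* and for *Arrdc3* and *Mlxip*, and were apart otherwise. In *Smyd1-KO* hearts *Arrdc3* led at 22.1 ± 3.09 CPM, followed by *Mlx* (10.3 ± 0.377), *Mlxip* (7.58 ± 0.594), *Txnip* (7.25 ± 1.87), *Arrdc1* (5.03 ± 0.306), *Arrdc4* (2.65 ± 0.240), *Arrdc2* (1.68 ± 0.0984) and *Mlxipl* (0.144 ± 0.00692). Only *Mlxip* and *Txnip* overlapped as neighbors there.

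The glucose-sensing factors showed small differences. *Mlxip* (ENSMUSG00000038342), the gene of MondoA, is a gene of chromosome 5 (123394798 to 123457932) and stood at 67.5, 83.8 and 86.3 CPM in WT and at 68.6, 59.0 and 61.8 CPM in mutant hearts. WT heart 1 lay within the mutant range, and the difference was -0.33 on the log2 scale (standard error 0.113, 95% interval -0.59 to -0.06, adjusted *P*=0.131 by edgeR). *Mlx* (ENSMUSG00000017801), on chromosome 11 (101087277 to 101092207), stood at 22.4, 21.4 and 21.8 CPM in WT and at 19.8, 21.3 and 20.8 CPM in mutant hearts. Its log2 fold change was -0.09 (95% interval -0.30 to 0.13, adjusted *P*=0.598 by edgeR), so that the interval holds no change as large as those of *Txnip*, *Arrdc3* and *Arrdc4*. *Psmc3ip* on the other strand shares 385 exonic bases with *Mlx* and held 965 to 1443 counts per heart, so part of the *Mlx* counts is uncertain.

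*Mlxipl* (ENSMUSG00000005373), the gene of ChREBP, is a gene of chromosome 5 (135089890 to 135138382) and was the lowest of the 8, with 37 to 79 counts per heart. Its level was 0.621, 1.13 and 1.19 CPM in WT and 0.802, 0.829 and 0.753 CPM in mutant hearts. The difference of -0.30 on the log2 scale carried a standard error of 0.297 (edgeR, adjusted *P*=0.566), with an upper 95% bound of 0.39 and a lower bound that still takes in the change of *Txnip* (-0.98). At this depth a change of that size was not distinguishable from none for *Mlxipl*.

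**Figure D4:**
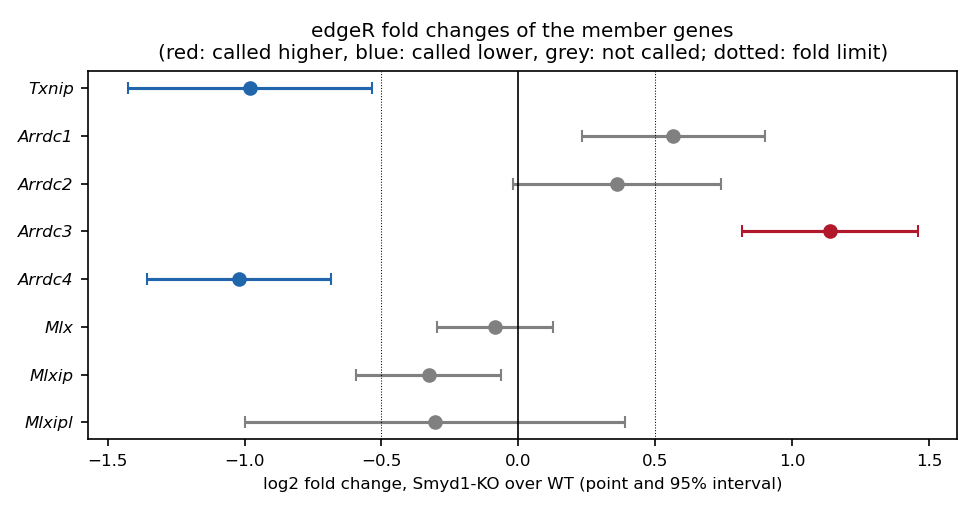
Log2 fold change of *Smyd1-KO* over WT hearts (x axis) for the 8 genes, with the edgeR estimate as a point and its 95% interval as a bar. Blue genes were called lower (*Txnip*, -0.98, and *Arrdc4*, -1.02), the red gene was called higher (*Arrdc3*, 1.14), grey genes were not called, and dotted lines mark the fold limit of 0.5.

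Lists of related genes were read beside the members. Of all tested genes 2.86% were called higher and 1.42% lower by edgeR. Of 8 genes for glucose entry and the handling of glucose-6-phosphate, the signal of MondoA and ChREBP, 5 were called higher and 0 lower, with a median log2 fold change of 0.99 against -0.00255 over all tested genes. *Slc2a3*, a glucose transporter gene, rose from 514, 483 and 604 CPM in WT to 1843, 1672 and 1949 CPM in *Smyd1-KO* hearts (log2 fold change 1.77, adjusted *P*=0.000996 by edgeR). *Slc2a1*, whose product TXNIP and ARRDC4 are known to draw into the cell, had a log2 fold change of 1.37 (adjusted *P*=0.00654 by edgeR). *Slc2a4* (1.36), *Hk2* (hexokinase, which makes glucose-6-phosphate, 1.27) and *Gpi1* (0.70), which converts it to fructose-6-phosphate, were the other called genes. *Hk1* (0.39) and *G6pdx* (0.06) were not called. The count of 5 was 3 without *Smyd1-KO* heart 2, 2 without WT heart 2 and 3 without WT heart 3.

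Of 12 other genes known as targets of MondoA or ChREBP, 10 were tested, 1 was called higher and 1 lower, and the median log2 fold change was -0.29. The shares over all tested genes were 2.86% called higher and 1.42% lower by edgeR. *Pklr*, the pyruvate kinase of liver and red cells, fell from 3.74, 4.43 and 4.88 CPM in WT to 0.720, 0.609 and 0.385 CPM in *Smyd1-KO* hearts (log2 fold change -2.93, adjusted *P*=0.00397 by edgeR), in hearts whose erythroid genes were lower too. *Khk*, which encodes ketohexokinase, had a log2 fold change of 0.75 (adjusted *P*=0.0412 by edgeR), a call that was lost in all 6 fits with a heart left out and without the filter on low counts. The count of 2 became 1 without *Smyd1-KO* heart 2 or 3 and without WT heart 2 or 3. It stayed at 2 without *Smyd1-KO* heart 1, without WT heart 1 and without the filter, but there 0 were higher and 2 lower. With all 6 hearts and the filter, the other 8 tested genes were not called by edgeR. Among them *Pnpla3* (-1.29), *Gpd1* (-1.08), *Fasn* (-0.67) and *Elovl6* (-0.31) were below WT in every mutant heart, with adjusted *P*-values of 0.238, 0.130, 0.0689 and 0.126 by edgeR, while the genotypes overlapped for *Acaca* (-0.27), *Klf10* (-0.19), *Acly* (-0.15) and *Scd1* (0.06). All mutant hearts lay below all WT hearts for 2993 of the 19372 tested genes. DESeq2 called *Gpd1* and *Fasn* lower. *Thrsp* and *Fgf21* had too few counts for a test.

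The MAX network holds the factors that share partners with MLX, and 3 of its 10 genes were called, all higher (median log2 fold change 0.34). By edgeR 2.86% of all tested genes were called higher. *Mxi1*, a MAX partner that represses transcription, rose from 31.5, 31.6 and 30.7 CPM in WT to 59.2, 78.8 and 82.8 CPM in *Smyd1-KO* hearts (log2 fold change 1.24, standard error 0.130, adjusted *P*=0.00562 by edgeR). *Mnt*, which can pair with MLX as well as MAX, had a log2 fold change of 0.55 (adjusted *P*=0.0294 by edgeR) and *Myc* of 0.51 (adjusted *P*=0.0428 by edgeR). The count of 3 was 1 without *Smyd1-KO* heart 2 or 3 or WT heart 1 or 3 and 0 without WT heart 2. *Mxd4* (-0.33, adjusted *P*=0.106 by edgeR) and *Mxd1* (-0.01), whose products also pair with MLX, were not called.

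In the thioredoxin system, to which TXNIP binds, 1 of 5 genes was called, *Txnrd1*, where 1.42% of all tested genes were called lower. This gene of the cytosolic thioredoxin reductase fell from 326, 321 and 339 CPM in WT to 247, 206 and 179 CPM in *Smyd1-KO* hearts (log2 fold change -0.64, standard error 0.124, adjusted *P*=0.0332 by edgeR). *Txn1*, the thioredoxin that TXNIP inhibits, was at 196 ± 29.8 CPM in WT and 206 ± 9.52 CPM in *Smyd1-KO* hearts (SD, n=3, log2 fold change 0.07, adjusted *P*=0.754 by edgeR). *Txnrd2* had a log2 fold change of -0.14, and the median of the list was -0.13. The call of *Txnrd1* was kept without *Smyd1-KO* heart 1 and lost, giving 0 calls, when any other heart was left out.

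Of 7 NEDD4-family ligase genes 0 were called by edgeR and 0 by DESeq2, and 2 (*Nedd4l*, 0.34, and *Smurf2*, 0.22) had an unadjusted *P* under 0.05 (median log2 fold change of the list 0.14). *Itch*, which encodes the ligase known to ubiquitinate TXNIP, had a log2 fold change of 0.05. Of 6 other genes with an arrestin fold, 5 were tested and 0 were called by either tool, with 2 at an unadjusted *P* under 0.05. At that limit by edgeR, 2546 of all 19372 tested genes were higher and 2311 lower. *Vps26c* (listed as *Dscr3*), which encodes a subunit of the retriever complex of endosomal sorting, had a log2 fold change of 0.31 and *Vps26b* of 0.17, the largest 2 of this list, whose median was 0.10. *Arrdc5*, the remaining alpha-arrestin, had at most 6 counts in a heart and was not tested.

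**Figure D5:**
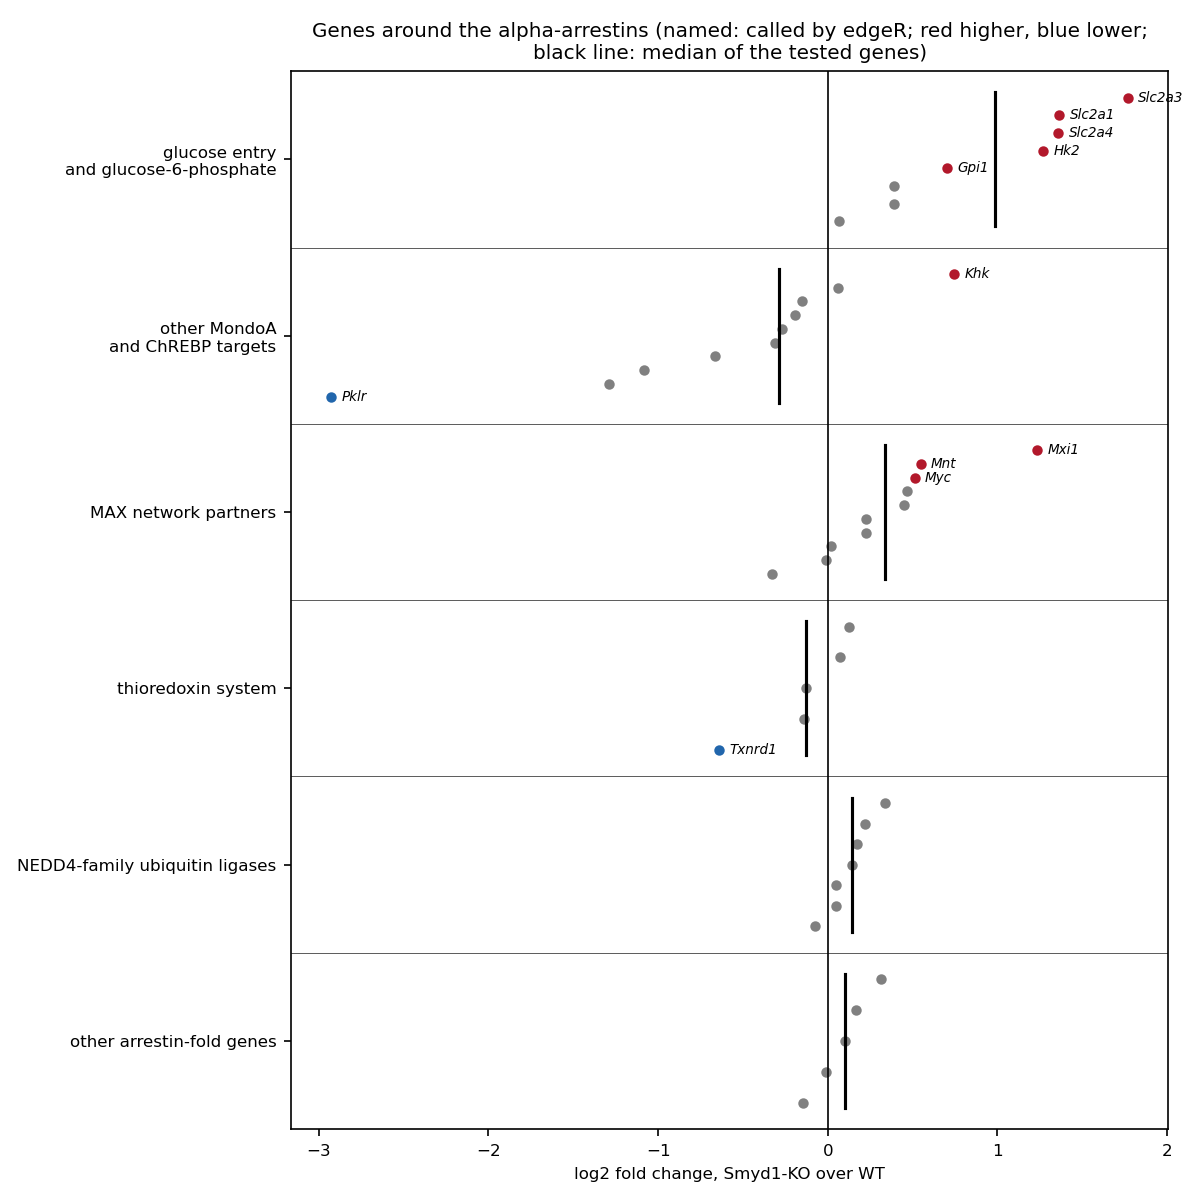
Log2 fold change of *Smyd1-KO* over WT hearts (x axis) for the tested genes of 6 related lists, 1 point per gene, with called genes named in red (higher) or blue (lower) and a black line at the median of each list. All 8 glucose entry genes lie right of 0, and *Pklr* (-2.93) is the lowest point.

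The genes with the most similar profiles were found by the root mean square difference of log2 CPM over the 6 hearts, after centering each gene on its mean, among the 13179 genes whose log2 CPM averaged 1 or more. *Txnip* lay nearest to *Scn7a* (0.0884), *Ttc39a* (0.101) and *Tdgf1* (0.118). *Arrdc4* lay nearest to *Slc39a8* (0.101), *Gm45819* (0.101) and *Acp5* (0.103). *Arrdc3* lay nearest to *Hid1* (0.0984), *Nampt* (0.106) and *Cldn5* (0.110). For the genes that were not called, the nearest were *Tiam1*, *Acp6* and *Sun1* for *Arrdc1*, *Vps13b*, *Alg6* and *4933434E20Rik* for *Arrdc2*, *Crk*, *Cops8* and *Dhdds* for *Mlx*, *Rnpc3*, *Pnn* and *Rbm4b* for *Mlxip*, and *Ubn2*, *G630016G05Rik* and *Gm43951* for *Mlxipl*. Between *Txnip* and *Arrdc4* the difference was 0.157, and between *Arrdc1* and *Arrdc2* it was 0.146, the smallest among the members.

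Markers of other cell types gave the following values beside these results. For comparison, 2546 of all 19372 tested genes were higher and 2311 lower at an unadjusted *P* under 0.05 by edgeR. Of 7 epicardial and proepicardial genes 0 were called by edgeR, though DESeq2 called 2 higher and 2 had an unadjusted *P* under 0.05 by edgeR, and their summed level was 125 to 155 CPM in WT and 159 to 282 CPM in *Smyd1-KO* hearts. Of 10 endothelial and endocardial genes 0 were called by edgeR (5 at an unadjusted *P* under 0.05), 1 was called higher and 2 lower by DESeq2, and the sums of the genotypes overlapped. Of the 12 cardiomyocyte genes 0 were called by edgeR (2 at an unadjusted *P* under 0.05) and 1 by DESeq2. Of 6 macrophage genes 3 were tested and 0 called by edgeR (2 at an unadjusted *P* under 0.05), with 1 called by DESeq2. Macrophage genes summed to 5.93 to 8.72 CPM, with *Ptprc* at 0 counts in WT hearts 2 and 3 and at most 7 elsewhere. Of 8 hepatic and visceral endoderm genes 7 were tested and 0 called by edgeR (1 at an unadjusted *P* under 0.05), with 1 called by DESeq2. They summed to 4.36 to 80.8 CPM without separating the genotypes. The part of these cell types in the changes of *Txnip*, *Arrdc3* and *Arrdc4* was not tested.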

How the data were processed

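The deposited table of raw counts per Ensembl gene, made by the authors from poly A RNA-seq reads aligned to mm10 with STAR in bcbio-nextgen, was used as deposited. The counting tool, annotation release and strand setting are not given in the sources used here. A second deposited table holds the same data after scaling by the authors and was not used. All 6 columns were mapped to samples by their titles. Genes were filtered with filterByExpr, scaled by TMM and compared with edgeR 4.0.16 in R 4.3.3 (quasi-likelihood test, Benjamini-Hochberg adjustment over 19372 genes). DESeq2 1.42.0, a tool the submitters' processing notes list, was an alternative. Other alternatives were RLE and upper-quartile scaling, other filters, leaving out mitochondrial and haemoglobin genes, no fold limit, a replicate block and leaving out each heart. The standard error is the log2 fold change divided by the square root of F. The fit was also run on simulated counts, drawn without differences in cell make-up between hearts, and the outcome is not reported here. Gene positions and exonic lengths came from GENCODE M21 (GRCm38) and promoters from RefSeq (GRCm38.p6), with a window for all 8 members. The biological coefficient of variation was 22.5%. No molecular identifiers are named, so counts are reads. Genes named in the text are the members, *Smyd1*, in each list the called genes and the 2 largest changes, and the 3 nearest profiles of each member. Other list genes were named after their values were seen, and single values of some list genes are not reported here. Members and lists were chosen with earlier results of these data known.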

Additional observations from a re-analysis of the deposited data

How the results depend on the processing

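The directions of the 8 members and of *Smyd1* were the same under all alternatives tried, and the cause of the changes in calls was not tested. With RLE or upper-quartile scaling, mitochondrial and haemoglobin genes left out, no filter, at least 10 counts in every heart or no fold limit, 3 members were called, and 4 by DESeq2, which added *Arrdc1*. DESeq2 called 1749 of all 54532 genes and 1738 of the 19372 genes tested by edgeR, where edgeR called 830. Of the other MondoA and ChREBP targets DESeq2 called 4. Leaving out 1 heart gave 0 to 3 called members, 97 to 1256 genes in all, 0 to 1 of the thioredoxin system, 0 to 2 of the MAX network, 1 to 2 of the other targets and 2 to 5 of the glucose entry genes. The fewest genes were called without WT heart 2 (97) and the most without *Smyd1-KO* heart 1 (1256). The labels do not say whether hearts with the same replicate number share an animal or batch. Correlations of same-numbered deviations were -0.216, -0.0538 and -0.182, and no heart correlated best with its own number. With 3 hearts per genotype that differ in make-up, these values cannot tell whether a batch was shared. With the replicate block 1 member (*Arrdc3*) was called and 59 genes in all, of which 2 were glucose entry genes and 0 were of the thioredoxin system, the MAX network or the other targets. Under this block the adjusted *P* by edgeR was 0.124 for *Txnip* and 0.0896 for *Arrdc4*. Depth limits *Mlxipl* most, at 37 to 79 counts per heart.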

Other observations

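The tandem E-box pair of the *Txnip* promoter was found in the promoter windows of 14 genes, 11 of which were tested. Besides *Txnip*, 2 of them were called, both higher in *Smyd1-KO* hearts, against 2.86% of all tested genes called higher. *Fnip1*, which encodes a partner of folliculin in nutrient sensing at the lysosome, rose from 20.8 to 40.7 CPM (log2 fold change 0.97, standard error 0.127, adjusted *P*=0.0111 by edgeR), and *Man2b2*, which encodes a lysosomal mannosidase, from 15.3 to 21.9 CPM (log2 fold change 0.52, standard error 0.110, adjusted *P*=0.0431 by edgeR). These letters were picked from *Txnip* itself, and both genes were named after their values were seen.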
